A study of Danio rerio with 4 samples.

Results

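Zebrafish regrow cardiac muscle after part of the ventricle is cut away, and the genes described here encode the cytokine machinery of that ventricle: interleukins and their receptors, the leptin receptor, Janus kinases (JAK and TYK2), STAT transcription factors, SOCS inhibitors and interferon regulatory factors (IRF). They were chosen by name from the deposited gene tables, as every symbol that begins with il, jak, tyk2, stat, socs, irf or lepa, lepb or lepr followed by its number or letter, without il17rd and the lepre and leprot names, and with at least 5 counts in at least 1 library. Such a name was carried by 105 of the 31388 genes listed, and 81 of them met the count minimum and were kept. They were 15 interleukin ligands, 23 interleukin receptors and receptor relatives, 5 JAK kinases, 8 STAT factors, 13 SOCS genes, 12 IRF factors, 3 IRF2-binding proteins, lepr and IL4I1, whose name matches the rule although it encodes an amino acid oxidase. The 24 names left out had 4 counts or fewer in every library, and il6, IL1R2 (2 of 2) and irf4l lay just outside with a highest count of 4, while IL12B (3 of 4) and il21r.2 lay just inside with 5.

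Cytokines that use this pathway bind paired receptors on the cell surface, the receptors activate JAK kinases, and the kinases phosphorylate STAT proteins, which enter the nucleus and switch on target genes. Genes of the SOCS family are among those targets, and their proteins bind receptors and JAKs and shut the signal down, so that a high SOCS transcript level commonly follows STAT activity. In zebrafish heart regeneration, Jak and Stat3 signalling in cardiomyocytes is known to be needed for their proliferation, and the regulatory region beside lepb is known for its activity in the endocardium after injury. IRF factors relay interferon signals, and some of them, such as irf8, also specify macrophages.

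RNA of adult ventricles was sequenced in 4 libraries, 1 each for dusp6 mutants at 20 days post amputation (dpa), wild-type (WT) fish at 20 dpa, uninjured dusp6 mutants and uninjured WT fish. The mutants carried the pt30a allele of dusp6 on both chromosomes, WT fish were of the AB* strain, and all fish were 6 months to 1 year old. The injured groups had undergone resection of the ventricle, and whether the uninjured groups had a sham operation was not given. Dusp6 is a phosphatase that inactivates the kinase ERK, and how many ventricles went into each library was not given in the sources used here.

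The totals ran between 55197408 and 63222206 counts per library, and the dusp6 transcript itself was at 121, 105, 183 and 85.3 CPM in dusp6 20 dpa, WT 20 dpa, dusp6 uninjured and WT uninjured ventricles (CPM, reads of a gene scaled to library size with TMM factors), so its level does not check the genotype labels. Cardiomyocyte markers such as myl7 were abundant in every library, with 9 markers that summed to between 58700 and 68595 CPM. In the tables the libraries from uninjured fish are headed in another style than those from injured fish, so injury cannot be told apart from a possible difference in how libraries were made. With 1 library per group, a difference between 2 libraries has no replicate check. In whole ventricle, fewer cells of a type and less RNA per cell cannot be told apart either. Intervals of folds are 95% counting intervals and cover counting error only.

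Per length of gene model, IRF2-binding proteins, jak2a, jak1 and several STAT factors were among the most abundant members, and 11 of the 15 ligands had under 50 counts in every library. On the authors' RPKM scale irf2bp2b was at 37.2, 36.2, 34.5 and 41.8 in dusp6 20 dpa, WT 20 dpa, dusp6 uninjured and WT uninjured ventricles, jak2a at 22.4, 16.5, 19.4 and 26.1, and stat4, a factor of interleukin-12 in mammals, at 18.9, 17.5, 24.4 and 19.7. In contrast, 26 of the 81 members never reached 50 counts in any library, and the highest of them was il1b at 0.742 CPM in WT 20 dpa. The plot of levels by role shows this spread.

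**Figure D1:**
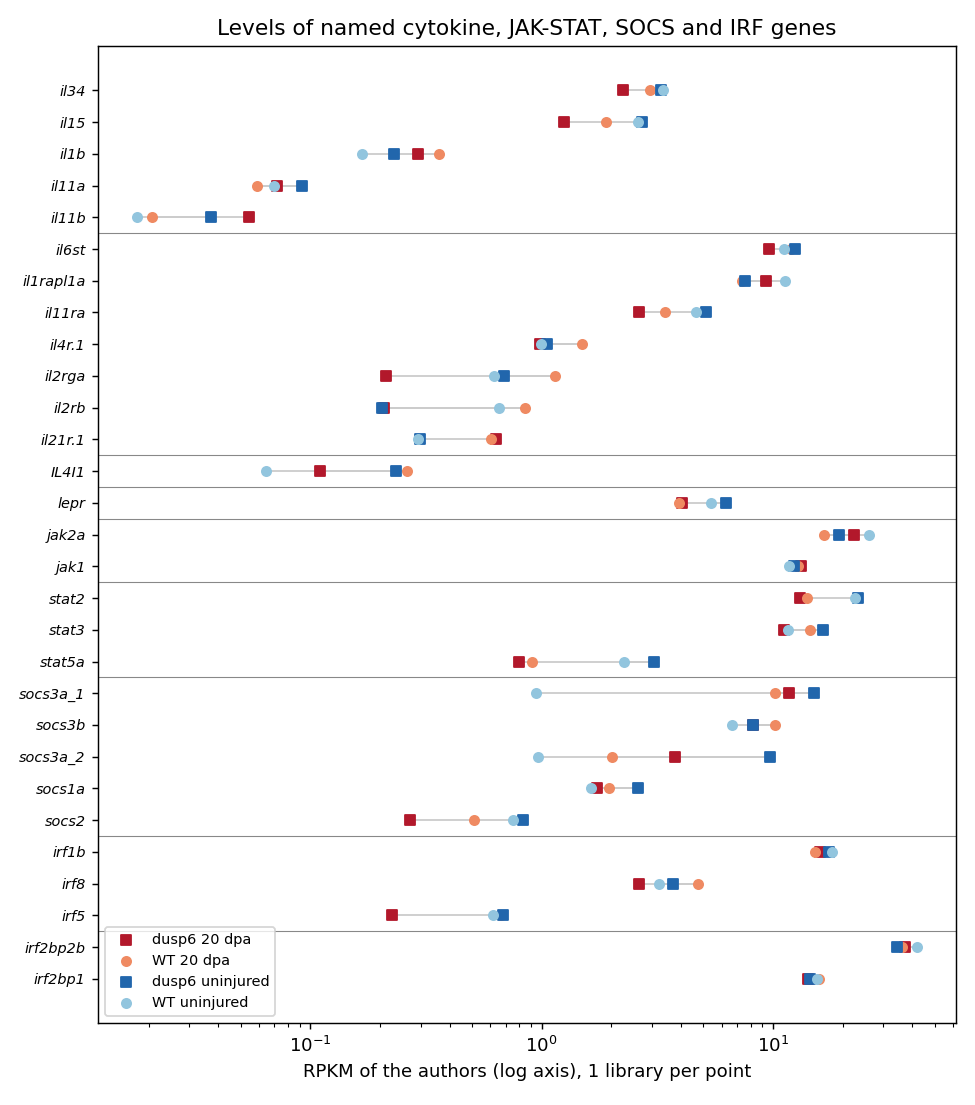
The authors' RPKM (log axis) of named members in each of the 4 libraries, grouped by role, with 1 point per library. IRF2-binding proteins, jak2a, jak1 and several STAT genes lie toward the upper end and il11a, il11b and il1b toward the lower end, and socs3a_1, at 11.7, 10.2 and 15.0 RPKM in dusp6 20 dpa, WT 20 dpa and dusp6 uninjured, lies at 0.946 RPKM in WT uninjured.

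Among the interleukin ligands, only il34, il15, IL16 and il1fma of the 15 reached 50 counts. With 0.1 CPM added to both sides none of them was called at 2-fold. As a plain ratio il15 was 2.01-fold lower in dusp6 at 20 dpa than in uninjured dusp6 (interval 1.60 to 2.54). The level of il1fma was 1.05, 2.12, 1.06 and 1.03 CPM in dusp6 20 dpa, WT 20 dpa, dusp6 uninjured and WT uninjured ventricles, so that WT 20 dpa stood apart. As plain ratios il1fma was 2.05-fold higher in WT at 20 dpa than in uninjured WT (1.51 to 2.80). At 20 dpa it was 2.01-fold lower in dusp6 than in WT (1.45 to 2.82). The highest per length was il34, a ligand of the macrophage colony-stimulating factor receptor, with 4.69, 5.70, 6.42 and 6.29 CPM in dusp6 20 dpa, WT 20 dpa, dusp6 uninjured and WT uninjured ventricles. Next came il15, a growth factor of T and natural killer cells in mammals, with 2.09, 2.93, 4.21 and 3.88 CPM in these libraries. Both 20 dpa libraries lay below both uninjured libraries for both of these ligands. Under a looser condition, 37.7% of all genes with enough counts were lower at 20 dpa than in the own uninjured library in both genotypes.

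The cytokines of the gp130 family shown here, il11a, il11b and il6, which signal through the receptor chain il6st, had few counts. The ligand il11a had 0.192, 0.145, 0.228 and 0.165 CPM, and il11b had 0.153, 0.0543, 0.0978 and 0.0449 CPM, in dusp6 20 dpa, WT 20 dpa, dusp6 uninjured and WT uninjured ventricles. For il6, a founding cytokine of that family, 2, 0, 0 and 4 reads were counted in the same libraries, and for lepb, which encodes leptin b, 1, 3, 0 and 0. The inflammatory cytokine il1b had 0.651, 0.742, 0.473 and 0.330 CPM. As a plain ratio il1b was 2.25-fold higher in WT at 20 dpa than in uninjured WT, on 41 and 22 reads (interval 1.31 to 3.97), and in dusp6 the interval of its ratio included 1 (1.38-fold, 0.815 to 2.34). In these libraries 3 counts correspond to between 0.0449 and 0.0575 CPM, close to the values of il11b, and il10, il22, il26, irf1a and lepa were listed at 0 in all 4 libraries.

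Per length, the shared receptor chain il6st stood far above these ligands, at 9.61, 11.9, 12.5 and 11.2 RPKM beside 0.0721, 0.0588, 0.0924 and 0.0696 RPKM of il11a in dusp6 20 dpa, WT 20 dpa, dusp6 uninjured and WT uninjured ventricles. Its scaled level was 96.4, 111, 117 and 100 CPM in the same libraries, with no pair of libraries as far as 2-fold apart. The specific chain il11ra, which binds interleukin-11 before il6st joins, was at 9.10 and 10.9 CPM in dusp6 and WT at 20 dpa, against 16.4 and 14.3 CPM in dusp6 and WT uninjured. Both 20 dpa values of il11ra were below both uninjured values, beside the share of 37.7% given above for the looser condition. An edgeR quasi-likelihood fit of injury over both genotypes gave a log2 difference of -0.62 ± 0.18 (SE). This difference did not pass the threshold of 0.05 (adjusted p = 0.124). The chain il10rb, a receptor subunit of the interleukin-10 family, had a like pattern with 19.6, 19.8, 29.5 and 27.8 CPM (edgeR adjusted p = 0.0988). The receptor relative il1rapl1a, named for an accessory protein of the interleukin-1 receptor family, was at 45.6 and 33.1 CPM in dusp6 and WT at 20 dpa, against 34.2 and 49.1 CPM in dusp6 and WT uninjured. The interleukin-4 receptor gene il4r.1 had 5.63 and 7.94 CPM in dusp6 and WT at 20 dpa, against 5.59 and 5.06 CPM in dusp6 and WT uninjured.

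Only 1 member was at least 2-fold higher at 20 dpa in both genotypes, il21r.1 (ENSDARG00000069961), one of 2 genes named for the interleukin-21 receptor. It had 1.82 and 1.61 CPM in dusp6 and WT at 20 dpa, against 0.799 and 0.749 CPM in dusp6 and WT uninjured. The injured and uninjured libraries did not overlap, with 2.28-fold more in dusp6 (interval 1.60 to 3.28) and 2.15-fold more in WT (1.503 to 3.10). The share of all genes with such a difference in both genotypes was 2.38%, and 1 of the 54 members that reached 50 counts in each comparison stands beside that share. The edgeR fit did not call the gene, at a log2 difference of 1.15 ± 0.37 (SE, adjusted p = 0.145). Its ligand il21 had between 0.130 and 0.165 CPM in the 4 libraries.

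The chain il2rb (ENSDARG00000075720), which in mammals receives interleukin-2 and interleukin-15 on lymphocytes together with the common gamma chain, was the only member at least 2-fold apart between genotypes in both states. It had 1.09 CPM in dusp6 at 20 dpa, against 4.11 CPM in WT at 20 dpa, and 0.995 CPM in uninjured dusp6, against 3.06 CPM in uninjured WT. Both mutant libraries lay below both WT libraries, by 3.76-fold at 20 dpa (interval 2.80 to 5.12) and 3.07-fold without injury (2.30 to 4.16). The share of all genes with such a lower value in both states was 0.643%, and 0.573% of all genes but 0 members were at least 2-fold higher in both. In the edgeR fit of genotype over both states the log2 difference was -1.76 ± 0.29 (SE), and it did not pass after adjustment over all genes (adjusted p = 0.276).

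A common gamma chain gene, il2rga (ENSDARG00000068858), parted the genotypes at 20 dpa, with 0.287 CPM in dusp6 against 1.43 CPM in WT, a 4.97-fold lower value in the mutant (interval 2.84 to 9.30). In uninjured ventricles it had 0.864 CPM in dusp6 and 0.749 CPM in WT. Compared with its own uninjured library the dusp6 20 dpa value was 3.01-fold lower (interval 1.67 to 5.74), while the WT 20 dpa value was above that of uninjured WT. These values rest on 15 reads in dusp6 20 dpa and 79 in WT 20 dpa.

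T cell markers were low throughout. The 7 markers found summed to 1.92, 3.33, 2.41 and 2.77 CPM in dusp6 20 dpa, WT 20 dpa, dusp6 uninjured and WT uninjured ventricles, of which lck, a kinase of the T cell receptor, had 0.0958, 0.615, 0.212 and 0.569 CPM, and none of the 7 was at 0 in all libraries. Both mutant libraries were thus below both WT libraries in lck as they were in il2rb, but lck had under 50 counts in every library. In each genotype comparison only 1 of the 7 markers reached 50 counts. Its log2 fold change of dusp6 against WT was -0.10 without injury and -0.81 at 20 dpa. The part of T cells in the il2rb result was not tested.

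The JAK kinases showed no member at 2-fold or more in any comparison. For jak1, a kinase used by many of these receptors, 106, 95.3, 91.7 and 83.9 CPM were measured in dusp6 20 dpa, WT 20 dpa, dusp6 uninjured and WT uninjured ventricles. The values of jak2a, the kinase of the growth hormone and erythropoietin receptors in mammals, were 120, 82.3, 96.7 and 125 CPM, so that the mutant was above WT at 20 dpa and below it without injury. The lymphocyte kinase jak3 had between 2.01 and 3.31 CPM, and both of its dusp6 values lay below both of its WT values. Under a looser condition, 27.1% of all genes with enough counts were lower in dusp6 than in WT in both states.

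Most STAT factors had lower values after injury. Of the 8 genes, 8 had a lower CPM in dusp6 20 dpa than in dusp6 uninjured, and 6 had a lower CPM in WT 20 dpa than in WT uninjured, with median log2 fold changes of -0.47 and -0.30. Over all genes 51.0% and 51.5% were lower in these comparisons, with medians of -0.01 and -0.02. Only stat5a passed in the edgeR fit of injury over both genotypes, it was the only member called at least 2-fold lower at 20 dpa in both genotypes, and stat2 passed only in alternatives of that fit.

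The gene stat5a (ENSDARG00000019392) encodes one of 2 STAT5 factors, which act below growth hormone, prolactin and interleukin-2 in mammals. It had 2.49 and 2.64 CPM in dusp6 and WT at 20 dpa, against 8.90 and 6.32 CPM in dusp6 and WT uninjured. The 20 dpa libraries lay close together and well below the uninjured ones, by 3.57-fold in dusp6 (interval 2.95 to 4.36) and 2.39-fold in WT (1.98 to 2.91). Of all genes 2.25% were at least 2-fold lower in both genotypes. In the edgeR fit stat5a fell by 1.54 on the log2 scale at 20 dpa (SE 0.24, 2 libraries a state, adjusted p = 0.0459), against 1.42% of all genes that fell in it. This call had 1 residual degree of freedom and was close to the threshold. Total-count scaling gave an adjusted p of 0.0638, and dropping the genotype term gave 0.0722. Fits that left out 1 library also dropped the genotype term and had 1 library in a state, so their p-values are not given.

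In the authors' deposited table, which compares each 20 dpa library with both uninjured libraries, stat5a had the lowest FDR of all members, 0.182 in dusp6 and 0.230 in WT, and the signed folds given there were -3.02 and -2.89. No member passed an FDR of 0.05 in the authors' deposited table, where 0.924% of all genes passed as higher and 0.478% as lower in dusp6, and 1.03% and 0.497% in WT. Its paralog stat5b, at 5.92, 7.52, 8.28 and 8.88 CPM in dusp6 20 dpa, WT 20 dpa, dusp6 uninjured and WT uninjured ventricles, differed less (edgeR adjusted p = 0.297). The gene next to stat5a in the RefSeq gene order of assembly GRCz12tu was stat3, which carries signals of il6st, and stat3 did not share the pattern, with 41.3, 50.01, 56.8 and 38.3 CPM.

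**Figure D2:**
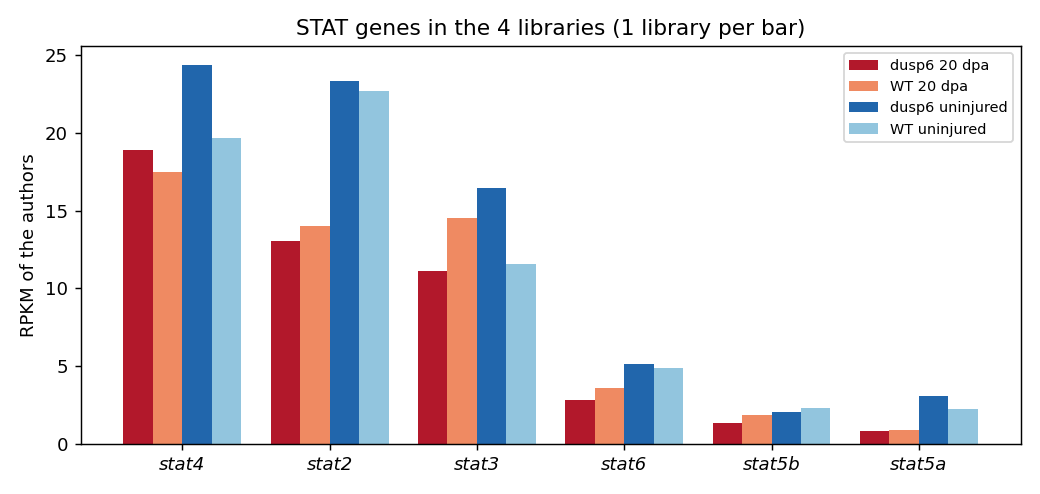
The authors' RPKM of 6 STAT genes, with 1 bar per library and no error bars because each group has 1 library. The 20 dpa bars of stat4, stat2, stat6, stat5b and stat5a are all below their uninjured bars, which does not hold for stat3. On the TMM-scaled CPM stat4 overlaps, at 65.8 CPM in dusp6 20 dpa and 61.0 CPM in WT uninjured. The bars of stat5a are at the low end of the family. Under a looser condition, 37.7% of all genes with enough counts were lower at 20 dpa than in the own uninjured library in both genotypes.

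Other STAT genes were also lower after injury without passing. The values of stat2, a factor of type I interferon signalling in mammals, were 103 and 103 CPM in dusp6 and WT at 20 dpa, against 172 and 160 CPM in dusp6 and WT uninjured (edgeR log2 difference -0.68 ± 0.12 SE, adjusted p = 0.0552). The alternative DESeq2 Wald test put stat2 past the threshold with an adjusted p of 0.0078, and so did edgeR with no filter on low counts, with 0.0368. For stat6, the factor of interleukin-4 and interleukin-13, 12.3, 14.6, 20.99 and 18.9 CPM were measured in dusp6 20 dpa, WT 20 dpa, dusp6 uninjured and WT uninjured ventricles (edgeR adjusted p = 0.126).

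The SOCS genes held the largest differences among the members, and these lay in socs3a, a feedback inhibitor of Stat3 signalling. The tables split this gene into a pair of rows, socs3a_1 (ENSDARG00000025428) and socs3a_2 (ENSDARG00000104400), while RefSeq lists a single socs3a, and reads could have been divided between the 2 models. The values of socs3a_1 were 27.0, 21.9 and 32.2 CPM in dusp6 20 dpa, WT 20 dpa and dusp6 uninjured ventricles, against 1.95 CPM in WT uninjured. Those of socs3a_2 were 8.66, 4.30 and 20.8 CPM in the same 3 libraries, against 1.99 CPM in WT uninjured. In both rows the uninjured WT ventricle was the lowest library, and for socs3a_1 the other three lay within 1.5-fold of each other.

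Without injury socs3a_1 was 16.5-fold higher in dusp6 than in WT (interval 13.9 to 19.9) and socs3a_2 was 10.5-fold higher (8.74 to 12.6). In WT, 20 dpa was 11.2-fold above uninjured for socs3a_1 (interval 9.38 to 13.6) and 2.16-fold above for socs3a_2 (1.74 to 2.69). In dusp6 the direction was the other way, with socs3a_2 2.41-fold lower at 20 dpa than uninjured (interval 2.16 to 2.68) and socs3a_1 at a log2 fold change of -0.25. Against the mean of both uninjured libraries, the reference of the authors' deposited table, the log2 fold change of socs3a_2 in WT turned to -1.39. For socs3a_1 in WT the authors' signed fold against both uninjured libraries was 1.28, so its 11.2-fold rests on the low uninjured WT library.

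Added over both rows, socs3a had 35.7, 26.2 and 53.1 CPM in dusp6 20 dpa, WT 20 dpa and dusp6 uninjured ventricles. In WT uninjured the sum was 3.94 CPM. Such a sum does not depend on how counted reads were divided, but it would miss any reads left out for matching both rows. The sum was 13.5-fold higher in dusp6 than in WT without injury and 1.36-fold higher at 20 dpa. The share of the reads in socs3a_2 varied, at 24.3% (exact binomial interval 22.4 to 26.3), 16.4% (14.6 to 18.4), 39.3% (37.6 to 41.0) and 50.6% (44.4 to 56.8) in dusp6 20 dpa, WT 20 dpa, dusp6 uninjured and WT uninjured. That range of 34.1 percentage points was larger than in all but 7 of 73 pairs of rows with split names. The edgeR fit of genotype called neither row (adjusted p = 0.647 for socs3a_1 and 0.467 for socs3a_2).

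**Figure D3:**
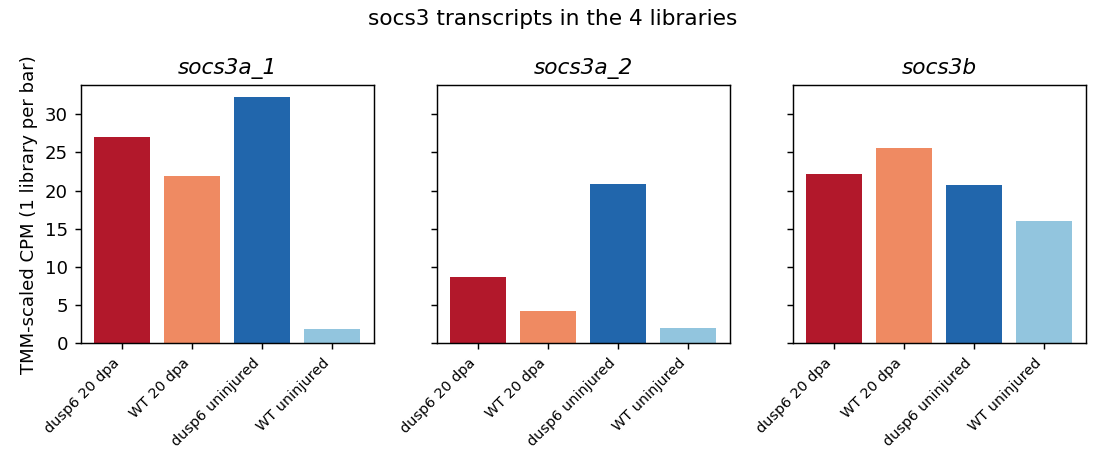
Scaled CPM of socs3a_1, socs3a_2 and socs3b in the 4 libraries, 1 library per bar, with no error bars because no group has a second library. Both socs3a rows are lowest in WT uninjured (1.95 and 1.99 CPM), whereas socs3b is at 16.1 CPM there.

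Some other transcripts were also lower in uninjured WT than in uninjured dusp6, and the share of all genes that were lowest in uninjured WT was not counted. Among genes named here after their values were seen, cebpd, a transcription factor gene and a Stat3 target in mammals, had 55.6, 51.3 and 65.2 CPM in dusp6 20 dpa, WT 20 dpa and dusp6 uninjured ventricles, against 18.5 CPM in WT uninjured. The immediate early genes junba and egr1, which respond within minutes to stimuli including tissue handling, had 5.79 and 10.8 CPM in dusp6 uninjured, against 2.65 and 3.40 CPM in WT uninjured. Among 9 immediate early and heat shock genes with enough counts, these 2 were at least 2-fold higher in dusp6 uninjured than in WT uninjured, and the heat shock gene hsp70l was lower, at 1.26 CPM in dusp6 uninjured against 2.73 CPM in WT uninjured, beside 3.73% and 2.98% of all genes. The whole list of immediate early and heat shock genes summed to 318, 369, 113 and 101 CPM in dusp6 20 dpa, WT 20 dpa, dusp6 uninjured and WT uninjured, and its part in the socs3a values was not tested.

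The other SOCS genes stayed within narrower limits. The paralog socs3b had 22.2, 25.6, 20.7 and 16.1 CPM in dusp6 20 dpa, WT 20 dpa, dusp6 uninjured and WT uninjured ventricles, and its uninjured WT value was also its lowest. The gene socs2, which restrains growth hormone signalling and is a STAT5 target in mammals, had 0.575 and 1.01 CPM in dusp6 and WT at 20 dpa, against 1.65 and 1.44 CPM in dusp6 and WT uninjured. Its difference reached 2-fold only in the mutant, by 2.87-fold (interval 1.89 to 4.46), and the edgeR fit did not call it (adjusted p = 0.238). For socs1a, an inhibitor of interferon signalling, 2.39, 2.50, 3.36 and 2.01 CPM were measured in the same order of libraries. Both mutant values of socs5b (16.0 and 15.2 CPM at 20 dpa and uninjured) were below both WT values (22.6 and 21.1 CPM). The gene did not pass in edgeR (adjusted p = 0.506). Beside it stands the share of 27.1% of all genes given above for the looser condition.

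Among the IRF factors, irf5 (ENSDARG00000045681), which drives inflammatory cytokine genes in mammalian macrophages, was lowest in the injured mutant. It had 0.766 CPM in dusp6 20 dpa, against 2.10 CPM in WT 20 dpa and 2.15 CPM in dusp6 uninjured, and 1.87 CPM was measured in WT uninjured. The injured mutant was 2.74-fold below injured WT (interval 1.90 to 4.03) and 2.81-fold below the uninjured mutant (1.96 to 4.11). The macrophage factor irf8 had 5.58 CPM in dusp6 20 dpa and 9.24 CPM in WT 20 dpa, with 7.22 CPM in dusp6 uninjured and 6.04 CPM in WT uninjured, and it did not reach 2-fold.

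Macrophage and pan-leukocyte markers differed between the 20 dpa libraries in the same direction as irf5, irf8 and il2rga, and the summed neutrophil markers did not. The 15 macrophage markers summed to 348 CPM in dusp6 20 dpa and 530 CPM in WT 20 dpa, and to 417 CPM in dusp6 uninjured and 341 CPM in WT uninjured. The 10 pan-leukocyte markers, led by lcp1 and ptprc, summed to 96.9 CPM in dusp6 20 dpa and 167 CPM in WT 20 dpa, and to 101 CPM in dusp6 uninjured and 93.9 CPM in WT uninjured. Of these markers 6 of 15 and 3 of 10 were at least 2-fold lower in the injured mutant than in injured WT, and none was higher, where 3.89% of all genes were lower and 2.97% higher. The 8 neutrophil markers summed to 178 CPM in dusp6 20 dpa and 169 CPM in WT 20 dpa, and 1 of them was at least 2-fold lower in the mutant and 0 were higher. By median, however, the neutrophil markers were also lower in the injured mutant. Their median log2 fold change was -0.22, beside -0.77 for the macrophage and -0.69 for the pan-leukocyte markers. None of these markers was at 0 in all libraries. Their part in the irf5, irf8 and il2rga values was not tested.

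Among the more abundant IRF genes, irf1b, irf2bp2b and irf2bp1 differed little. For irf1b, named for IRF1, which interferon gamma induces in mammals, 53.0, 46.8, 53.8 and 53.3 CPM were measured in dusp6 20 dpa, WT 20 dpa, dusp6 uninjured and WT uninjured ventricles. The IRF2-binding proteins irf2bp2b and irf2bp1, which are transcriptional co-regulators, ranged between 81.1 and 94.0 CPM and between 50.9 and 55.6 CPM. The leptin receptor lepr had 29.2 and 26.2 CPM in dusp6 and WT at 20 dpa, against 41.9 and 34.8 CPM in dusp6 and WT uninjured. It did not pass in edgeR (adjusted p = 0.117). The gene irf4a, a lymphocyte factor in mammals, showed the same order at 2.30, 1.92, 4.47 and 3.10 CPM (edgeR adjusted p = 0.139). Beside lepr and irf4a stands the share of 37.7% of all genes given above for lower values at 20 dpa in both genotypes, a looser condition.

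Differences of 2-fold or more were set against all genes. They were counted where the higher library had 50 counts or more, after adding 0.1 CPM. In WT, 3 of 55 members were at least 2-fold higher at 20 dpa and 1 was lower, where 6.27% and 4.90% of all genes were. In dusp6, 1 of 54 was higher and 5 were lower at 20 dpa, where 6.32% and 7.93% of all genes were. Between genotypes without injury 2 of 55 were higher in dusp6 and 1 was lower, beside 3.73% and 2.98% of all genes, and at 20 dpa 0 of 54 were higher and 3 were lower, beside 2.97% and 3.89%. In all, 8 members were at least 2-fold apart in at least 1 comparison.

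Small differences leaned downward in the comparisons that involve the injured mutant, and upward in dusp6 against WT without injury. Of 54 members 40 were lower in dusp6 than in WT at 20 dpa, with a median log2 fold change of -0.20, where 48.4% of all genes were lower with a median of 0.01. Of 54 members 36 were lower in dusp6 at 20 dpa than in dusp6 uninjured, with a median of -0.26, where 51.0% of all genes were lower. In WT 26 of 55 members were lower at 20 dpa than uninjured, with a median of 0.04, where 51.5% of all genes were lower. Of 55 members 20 were lower in dusp6 than in WT without injury, with a median of 0.07, where 48.9% of all genes were lower. These last counts depended on the scaling, since total-count scaling gave 30 of 55 (median -0.029) and 27 of 55 (median 0.0030). Each injured library takes part in 2 of these comparisons, so the counts that share it are not separate observations. The macrophage and pan-leukocyte sums given above were also lower in dusp6 than in WT at 20 dpa. The neutrophil sum was not, though the neutrophil median log2 fold change was -0.22. Other marker lists differed as well. Epicardium and fibroblast markers summed to 803 CPM in dusp6 and 1210 CPM in WT at 20 dpa (median -0.31). Skeletal muscle markers had a median of -1.57, although they summed to 4163 CPM in dusp6 and 3860 CPM in WT. Medians of the cardiomyocyte and endothelium lists lay above 0, at 0.09 and 0.08. The part of leukocytes or of other cell types in the lean was not tested.

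**Figure D4:**
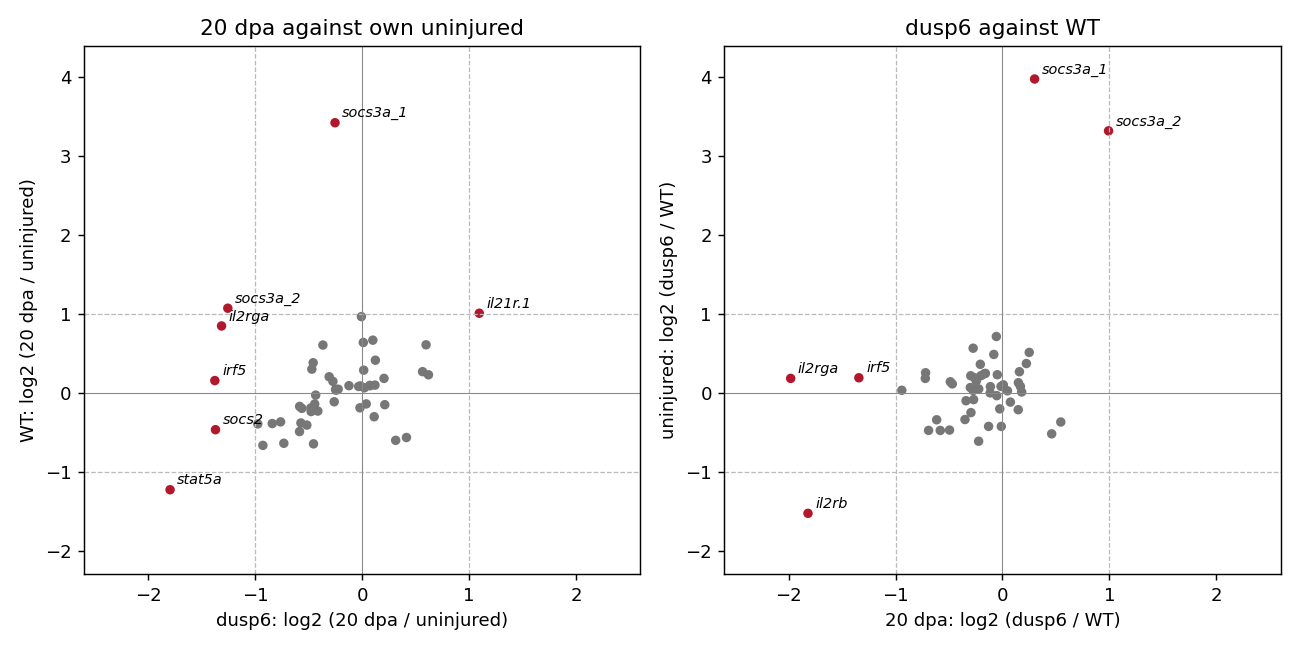
Left, log2 fold change at 20 dpa against the own uninjured library in dusp6 (horizontal) and in WT (vertical); right, log2 fold change of dusp6 against WT at 20 dpa (horizontal) and uninjured (vertical), with 1 point for each of the 54 members with at least 50 counts in both comparisons of a panel, dashed lines at 2-fold and red points past 2-fold in at least 1 of the 2. On the left il21r.1 (upper right) and stat5a (lower left) are past 2-fold in both genotypes and socs3a_1 lies at -0.25 in dusp6 and 3.43 in WT, and on the right il2rb (lower left) is past 2-fold in both states.

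Over the 72 members that the edgeR fit of injury could test, 0 rose and 1 fell, where 1.81% and 1.42% of all 18278 genes did. At an unadjusted p under 0.05 there were 10 members, 9 of them lower at 20 dpa, and with 72 members tested these 9 were 12.5%, where 12.2% of all genes were lower and 12.8% higher at that level. The 9 included stat5a, stat2, stat6, il10rb, il11ra, il15, irf4a and lepr, of which il15 had an adjusted p of 0.197 in edgeR, and the tenth was il21r.1. The DESeq2 Wald test called 2 of the 54 members to which it gave an adjusted p, both lower, where 4.4% of all genes fell and 5.1% rose in it. In the genotype fit edgeR called 0 members, where it called 0 genes higher and 0.0109% of all genes lower in dusp6. At an unadjusted p under 0.05 that fit had 3 members, with socs3a_2 higher and il2rb and socs5b lower in dusp6, where 4.34% of all genes were higher and 3.95% lower. The DESeq2 Wald test of genotype also called 0 members, beside 0.438% of all genes higher and 0.518% lower.

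Other genes of the pathway, from lists written for these comparisons, gave few calls in the edgeR fit of injury. In that fit 1.81% of all genes rose and 1.42% fell. Of 27 tested cytokine ligands and receptors outside the interleukin names and of 21 tested JAK-STAT cofactors, 0 were called. Of 27 tested interferon-stimulated genes, with a median log2 difference of -0.06, 1 rose. It was gbp1, a guanylate-binding protein gene (edgeR log2 difference 1.41 ± 0.15 SE, adjusted p = 0.0307). Its values were 19.3 and 25.2 CPM in dusp6 and WT at 20 dpa, against 6.91 and 10.04 CPM in dusp6 and WT uninjured. Of 28 tested genes of interleukin-1 and NF-kB signalling 1 fell, ikbkb, a kinase that activates NF-kB, at 3.14 and 3.87 CPM in dusp6 and WT at 20 dpa, against 12.2 and 8.94 CPM in dusp6 and WT uninjured (edgeR log2 difference -1.58 ± 0.25 SE, adjusted p = 0.0463).

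Genes linked to STAT3 differed between the 2 injury comparisons in count. In dusp6 2 of 18 that had enough counts were at least 2-fold higher at 20 dpa than uninjured and 0 were lower, and in WT 7 of 20 were higher and 0 were lower, where 6.32% of all genes were higher in dusp6 and 6.27% in WT. The median log2 fold changes were closer, at 0.25 in dusp6 and 0.37 in WT, and the median of dusp6 against WT at 20 dpa was 0.05. Without injury the median of dusp6 against WT was 0.23. In that comparison 2 of 18, cebpd and junba, were at least 2-fold higher and 0 were lower. Of all genes 3.73% were higher and 2.98% lower there. The 7 in WT included cebpd, junba (also among the immediate early genes above), cebpb, myca and the acute phase gene hp_2. Of these, myca had 7.13 and 4.54 CPM in dusp6 and WT at 20 dpa, against 1.19 and 1.98 CPM in dusp6 and WT uninjured, and cebpb had 11.13 and 11.09 CPM at 20 dpa in dusp6 and WT, against 7.60 and 5.38 CPM in the uninjured libraries of dusp6 and WT. The edgeR fit called 0 of the 21 it tested, and the difference between the genotypes in this count was not tested.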

How the data were processed

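Counts, RPKM and the results of an EDGE test were used as deposited in 2 gene tables, each of which sets a 20 dpa library against both uninjured libraries as 1 group. The authors deposited whole-number expression values, taken as raw counts, and RPKM computed from them, per the file headers. The deposited signed fold change is a score in which falls are negative, and its p-value and FDR are the authors', per the file headers. No source used here gives the aligner, genome build or annotation, and no coordinates are printed. The gene name table held 25925 of the identifiers, and RefSeq (GRCz12tu) gave only names and gene order.

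Counts were scaled by TMM (edgeR 4.0.16, R 4.3.3; factors 0.937, 1.00, 1.01 and 1.06 for dusp6 20 dpa, WT 20 dpa, dusp6 uninjured and WT uninjured). Each 20 dpa library was set against its own uninjured library, and genotypes were compared within a state. A fold change is on the log2(CPM + 0.1) scale, which understates changes of low genes, and folds with counting intervals are plain ratios of scaled counts. Reads were not counted by molecular identifier, so intervals treat PCR copies as separate molecules. An additive edgeR quasi-likelihood fit (genotype and injury, 4 libraries, 1 residual degree of freedom, Benjamini-Hochberg over all genes) gave the adjusted p-values. Its spread is how far the genotypes' injury differences part, since no group has a second library, so p-values do not measure the spread between animals of a group. The fit was tested on counts simulated for 18278 genes with a known injury effect and a set spread between libraries (dispersion 0.05). It recovered 13.5%, 99.0% and 100% of 200 genes changed 2-, 4- and 8-fold, with 1, 9 and 11 false calls. These shares hold for the simulated spread and are not the power for such changes in these libraries. Only the injury comparison was simulated. In the genotype fit of the real counts socs3a_2 was not called at a log2 difference of 2.19, nor il2rb at -1.76. DESeq2 1.42.0 was an alternative. Named were the highest 2 members of each role, members past 2-fold or called, members fixed by name, and others for their role or a test at unadjusted p under 0.05, apart from members that enter the counts but are not reported here by name. The members, the lists and the tests were chosen with earlier results of these data known. Python 3.11.15 with pandas 2.3.3 and scipy 1.17.1 did the rest.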

Additional observations from a re-analysis of the deposited data

Results flagged for a closer look

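Of the 54 members with enough counts, 21 had injury differences of opposite sign in the 2 genotypes. Above 0 in both genotypes were 13 members and 35.4% of all genes, and below 0 in both were 20 members and 37.7% of all genes. Counting intervals cover counting error only, so with many reads they exclude a ratio of 1 at small differences. An example is il6st, with log2 fold changes of -0.27 in dusp6 and 0.15 in WT. The 3 members past 2-fold in a genotype for which both intervals excluded 1 are given here, with 1 library on each side. The log2 fold change at 20 dpa against the own uninjured library was -1.32 in dusp6 and 0.85 in WT for il2rga. It was -0.25 in dusp6 and 3.43 in WT for socs3a_1, and -1.26 in dusp6 and 1.07 in WT for socs3a_2. The difference between the genotypes was not tested, because no group has a second library.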

How the results depend on the processing

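No paired analysis was possible because each group has 1 library and the labels give no shared replicate number. The counts of members at least 2-fold apart are small and moved with the settings. For WT at 20 dpa (3 higher, 1 lower), a pseudocount of 0.5 or 1 CPM or a floor of 250 counts gave 1 higher, a floor of 20 counts gave 2 lower, and no floor gave 5 higher and 3 lower. A fold of 1.5 gave 9 higher and 5 lower, a fold of 4 gave 1 and 0, leaving out both socs3a rows (chosen after seeing the data) gave 1 higher, and the mean of both uninjured libraries gave 0 higher and 2 lower. For dusp6 at 20 dpa (1 higher, 5 lower), total counts gave 0 higher, a pseudocount of 0.5 CPM gave 0 and 3, a pseudocount of 1 CPM or a floor of 250 counts gave 0 and 2, a floor of 20 counts or no floor gave 3 higher, a fold of 1.5 gave 3 and 12, and a fold of 4 gave 0 and 0. For dusp6 against WT uninjured (2 higher, 1 lower), a floor of 20 counts gave 4 and 3, no floor gave 5 and 4, floors of 250 counts or a fold of 4 gave 0 lower, a fold of 1.5 gave 2 lower, and leaving out both socs3a rows gave 0 higher. At 20 dpa (0 higher, 3 lower), DESeq2 size factors or a floor of 20 counts gave 1 higher, no floor gave 2 higher, a pseudocount of 1 CPM gave 1 lower, a floor of 250 counts or a fold of 4 gave 0 lower, and a fold of 1.5 gave 1 and 8.

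The median log2 fold change of members in WT turned to -0.029 with total counts, -0.036 with a floor of 20 counts, -0.14 with 250 counts, -0.030 with no floor and -0.042 against the mean of both uninjured libraries, which also turned socs3a_2 in WT to -1.39. In the injury fit, members that fell numbered 2 with DESeq2 and with no filter, and 0 with total counts. Without the genotype term 0 of all genes were called, so the members had no call there either. The 4 fits that left out 1 library also dropped that term, so no count from them is given. For the members whose adjusted p is given, stat5a and stat2 changed sides as described above, stat5a also passed with DESeq2 size factors (0.0498), no filter (0.0283) and the DESeq2 Wald test (0.0014), and il2rb reached 0.0559 with that test. Over all genes 590 were called for injury, 1400 with DESeq2, 987 with no filter, 211 with total counts and 0 without the genotype term. Total counts moved the median of all genes to -0.12 in the dusp6 injury comparison, and its members' median to -0.37. The causes were not tested. Depth limits the 26 members under 50 counts.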
